A study of Mus musculus with 4 samples.

Results

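The genes described here decide whether pyruvate enters the mitochondrial pyruvate dehydrogenase complex or is turned into lactate. The 9 members were chosen by gene symbol: the pyruvate dehydrogenase kinases Pdk1, Pdk2, Pdk3 and Pdk4, the lactate dehydrogenase subunits Ldha and Ldhb, and the pyruvate dehydrogenase complex subunits Pdha1, Pdhb and Dlat. They were measured by 17 of the 22690 probe sets on the array and are 9 of 12393 named genes. RNA came from primary fibroblasts that had been grown out of e14.5 mouse embryos. Wild-type cells were set beside tri-CH1 cells, in which the CH1 domain is deleted from both alleles of p300 and from 1 allele of CBP, so that 1 CBP allele keeps it. CH1 is a protein-binding domain of these coactivators, and the oxygen-regulated transcription factor HIF-1α is among its partners. The deletion itself was not checked on these arrays. Cells of each genotype spent 6 h at 21% oxygen (normoxia) or at 0.1% oxygen (hypoxia), at 37 °C with 5% carbon dioxide, in medium with 10% serum equilibrated beforehand to the same oxygen level. How many embryos or cultures stood behind an array was not given in the sources used here.

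Pyruvate dehydrogenase joins glycolysis to the citric acid cycle. Pdha1 and Pdhb encode the subunits of its first enzyme, which removes carbon dioxide from pyruvate, and Dlat the second, which hands the acetyl group to coenzyme A. The Pdk kinases phosphorylate the Pdha1 product and switch the complex off, whereas lactate dehydrogenase reduces pyruvate to lactate and regenerates the NAD that glycolysis consumes. The A subunit, from Ldha, prevails in glycolytic tissues, and the B subunit, from Ldhb, in oxidative ones such as heart. Pdk1 and Ldha are textbook targets of HIF-1.

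There was 1 array in each of the 4 groups, so the values carry no replicate error, no difference was tested, and the number of arrays limits the precision. Signals are the deposited intensities, which the authors scaled to a target of 500 on every array. Before changes were taken, any signal under 200 was set to 200. A gene entered a comparison if its brighter array reached 500, and "rose", "fell", "higher" and "lower" mean a difference of at least 2-fold. Where the dimmer side was under 200, the fold is a lower bound. A measure of spread within the arrays comes from probe sets that target the same gene. Over 1059 genes with 2 probe sets at 500 or more on some array, the SD between them was, in log2 units, 0.26 for the wild-type hypoxia change, 0.31 for that of tri-CH1, and 0.34 and 0.33 for the genotype change in normoxia and hypoxia. Between 6066 and 6328 probe sets per array reached 500. The wild-type normoxia array had the lowest scale factor, 3.46 against 6.73 to 10.3, and came from another array lot, so in wild type the lot and the oxygen level cannot be told apart, nor can the lot and the genotype in normoxia. The tri-CH1 arrays share a lot. After scaling, the background was 139.1 on the wild-type normoxia array and 245.9 to 393.5 on the others. Scaled noise ran from 8.83 on that array to 19.2 on the tri-CH1 hypoxia array. A floor of 200 may therefore not be equally strict on every array. All 10 fibroblast markers reached 500 on some array, and 8 of them on every array, with summed signals between 124900 and 147600. Of 6 epithelial markers, the keratins Krt8, Krt18 and Krt19 reached 500 on some array, and the list's sum went with hypoxia from 1057 to 4966 (wild type) and from 1382 to 3357 (tri-CH1), while the defining Epcam and Cdh1 were under 200 on all arrays. After the floor, the log2 changes were 4.28 and 2.66 for Krt19, 0.47 and 0.18 for Krt18, and -0.26 and -1.33 for Krt8, so these keratins did not move together. The 5 skeletal muscle markers summed to 4124 and 3987 on the wild-type arrays, against 1406 and 1205 on those of tri-CH1, with Acta1 alone reaching 500 and the defining Myod1 and Myog under 200 throughout. The part of these other marker genes in the results was not tested. The summed endothelial markers stayed between 566.9 and 694.4, the blood and macrophage markers between 1168 and 1321, and the neural markers between 1264 and 1619. Of these lists, only Csf1r (blood and macrophage) and Nes (neural) reached 500, each on every array. Ptprc, Hbb-bh1 and Itgam of the first list, and Tubb3 and Sox2 of the second, were under 200 throughout.

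The promoters of 4 members are shown because Pdk1 rose in hypoxia in both genotypes and Ldha in wild type, Pdk3 had the next largest change among the members, and Dlat went the other way. Each is the 250 bases before the start site that lies farthest upstream in RefSeq (build GRCm38.p6), written from 5′ to 3′ on the gene's strand. Capitals mark matches to the core of the HIF binding site, searched as ACGTG and GCGTG on both strands. Pdk1 is at chr2:71872974-71873223 on the plus strand, Ldha at chr7:46845554-46845803 on the plus strand, Pdk3 at chrX:93832151-93832400 on the minus strand and Dlat at chr9:50659781-50660030 on the minus strand.
Pdk1: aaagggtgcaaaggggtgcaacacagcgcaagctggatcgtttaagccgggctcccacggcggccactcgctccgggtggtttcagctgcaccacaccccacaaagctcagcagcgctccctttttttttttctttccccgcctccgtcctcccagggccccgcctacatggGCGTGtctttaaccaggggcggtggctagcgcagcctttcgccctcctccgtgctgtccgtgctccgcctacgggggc
Ldha: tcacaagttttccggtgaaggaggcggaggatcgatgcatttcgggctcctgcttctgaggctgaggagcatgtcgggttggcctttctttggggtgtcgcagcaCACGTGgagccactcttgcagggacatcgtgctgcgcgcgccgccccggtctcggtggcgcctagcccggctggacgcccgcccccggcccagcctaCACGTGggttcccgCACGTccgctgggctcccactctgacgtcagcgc
Pdk3: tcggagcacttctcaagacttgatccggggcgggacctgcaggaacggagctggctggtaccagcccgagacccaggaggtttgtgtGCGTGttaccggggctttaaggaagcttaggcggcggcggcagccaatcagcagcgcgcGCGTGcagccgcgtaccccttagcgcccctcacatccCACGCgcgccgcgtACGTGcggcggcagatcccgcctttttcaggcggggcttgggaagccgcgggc
Dlat: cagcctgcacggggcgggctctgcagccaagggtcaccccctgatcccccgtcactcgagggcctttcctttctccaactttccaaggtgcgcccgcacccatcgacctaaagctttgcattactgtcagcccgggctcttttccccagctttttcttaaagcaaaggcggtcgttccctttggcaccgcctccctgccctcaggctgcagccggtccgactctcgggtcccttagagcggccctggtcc

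The Ldha promoter had 5 matches at 3 places, all of them ACGTG. At 2 of these places the match is the palindrome CACGTG, which is read on both strands and so counts as 2 overlapping matches, beginning 145 and 48 bases before the start site. The remaining place is read on the other strand alone and begins 34 bases before the start. The Pdk1 promoter had 1 match, a GCGTG beginning 78 bases before the start, and Pdk1 had 2 over the 300 bases of its RefSeq entry, which runs past the start site. Over those 300 bases Ldha had 7 and Pdha1 4, and the counts of the other members did not change. Pdk3 had 4 matches at 4 places, 3 of them GCGTG. Pdha1 had 3, Pdk2 and Pdhb 2 each, Pdk4 and Ldhb 1 each, and Dlat 0 in this window. A match was therefore present in 8 of the 9 promoters, against 38.6% of the 32841 promoter windows of this length in RefSeq. At least 3 matches were present in 6.58% of all windows. The member windows were richer in G and C, at 56.4% to 67.6%, than the median window, at 52.4%. A match is a run of letters and was not tested for binding here.

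**Figure D1:**
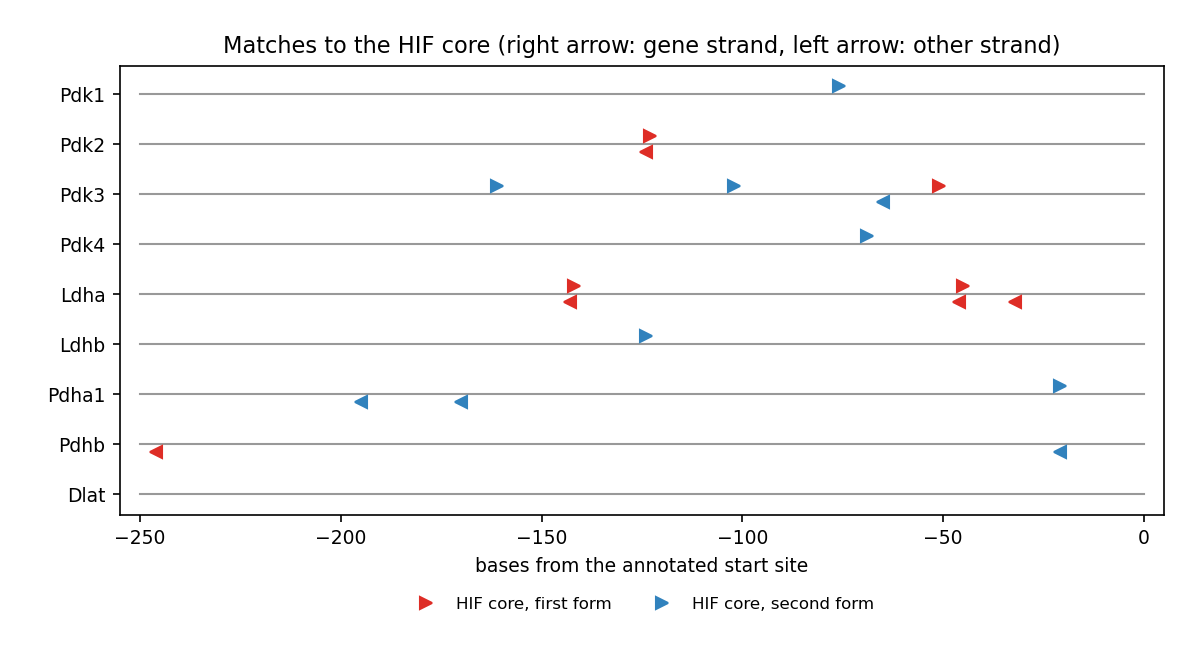
Position of each match to the HIF core in the 250 bases before the start site (horizontal axis, in bases) of the 9 members, one line per gene. Red arrows are ACGTG, the first form, and blue arrows GCGTG, the second form; right-pointing arrows lie on the gene's strand and left-pointing arrows on the other. Ldha has 5 matches at 3 places, Pdk1 has 1 and Dlat has 0.

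Across the members, 7 reached a signal of 500 on at least 1 array and 2 did not. Of the 4 kinases, Pdk1 and Pdk3 reached it. Pdk3 did so on all 4 arrays, and Pdk1 on both hypoxia arrays only. Pdk2 and Pdk4 stayed under 500 everywhere. Ldha, Pdha1 and Pdhb were at 500 or more on all arrays, Dlat on 3, and Ldhb on the tri-CH1 arrays only. By probe set, 10 of 17 reached 500 on some array, 5 on all arrays, and 3 stayed under 200 throughout, namely that of Pdk4 and the dimmest ones of Ldhb and Pdhb.

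**Figure D2:**
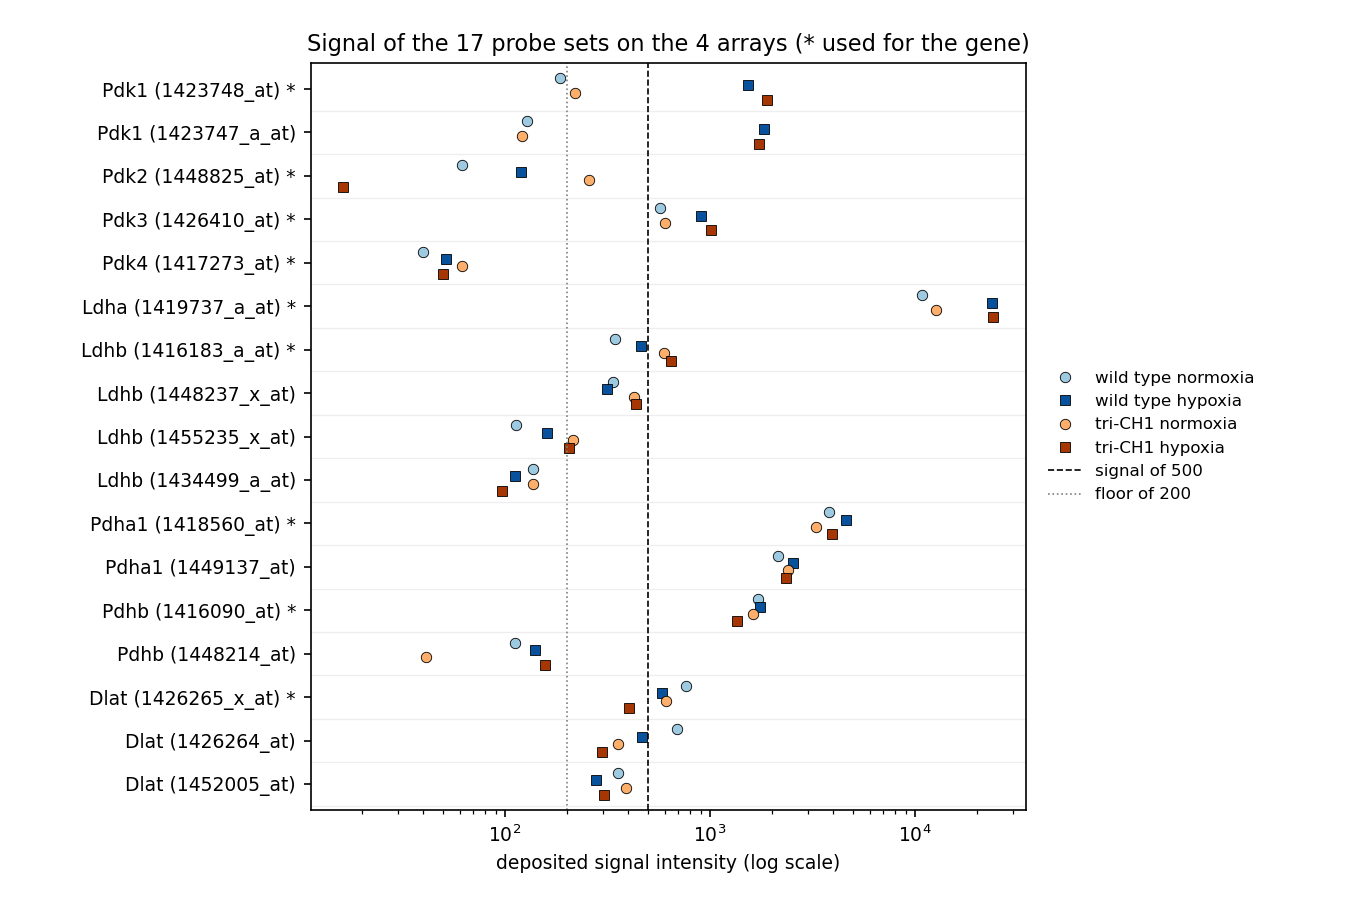
Deposited signal intensity (horizontal, log scale) of the 17 probe sets of the 9 members on the 4 arrays, with 1 point per array, circles for normoxia and squares for hypoxia. The hypoxia points of Pdk1 and Ldha lie to the right of their normoxia points in both genotypes. The points of Pdk2 and Pdk4 all lie left of the dashed line at 500.

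In wild type, hypoxia raised 2 of the 6 members bright enough to count, Pdk1 and Ldha, while 3.05% of 4125 genes rose. None of the 6 fell, against 1.19% of all genes. In tri-CH1, 1 of 7 members, Pdk1, rose, while 3.19% of 4358 genes did, and none fell, against 0.987%. The RNA is that of whole cultures, so fewer expressing cells and less RNA per cell cannot be told apart. Over the members counted, the median of the log2 changes was 0.47 for wild-type cells and 0.25 for tri-CH1 cells, beside -0.057 and -0.039 over all genes counted. The member medians cover different sets, 6 and 7 members, because Ldhb, at 0.10 in tri-CH1, was counted there alone. No difference between genotypes is read from them. With so few members, each share rests on 1 or 2 genes. Scaling the arrays to the same median gave 116 higher and 72 lower genes in wild type in place of 126 and 49. In tri-CH1 it gave 152 and 26 in place of 139 and 43.

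Pdk1, the kinase isoform most closely tied to HIF, had a wild-type signal of 186.0 in normoxia and 1538.5 in hypoxia, and a tri-CH1 signal of 220.2 in normoxia and 1887.1 in hypoxia (probe set 1423748_at). Both normoxia signals lay near the floor of 200 and both hypoxia signals far above 500, so the oxygen levels did not overlap. The rise was at least 7.69-fold in wild type, or 8.27-fold with the signal of 186.0 taken as given, and 8.57-fold in tri-CH1. A second Pdk1 probe set, 1423747_a_at, went from 127.5 to 1836.3 with hypoxia in wild-type cells, and in tri-CH1 cells from 121.1 to 1733.2. Its rise was at least 9.18-fold and at least 8.67-fold, and 14.4-fold and 14.3-fold without the floor. The probe sets differ in how far their normoxia signals lie under or near the floor, and less in their hypoxia signals. The choice between them was narrow, with mean signals of 958 and 954.5. By floored log2 change, Pdk1 was number 14 from the top of 4125 genes in wild type, where its change and those of other genes dim in normoxia are lower bounds, and number 6 of 4358 in tri-CH1.

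With the signals taken as given, subtracting the wild-type log2 change of Pdk1 from that of tri-CH1 gave 0.051 with the first probe set and -0.009 with the second, against an SD between probe sets of 0.39 for such differences. The normoxia signals behind these differences lie near or under the floor. With the floor, the difference was 0.16 for the first probe set, where only the wild-type normoxia signal was raised, and for the second, where both were raised, it holds no more than the hypoxia signals do. In hypoxia the tri-CH1 signal was 1.23 times the wild-type signal with the first probe set. With the second the log2 difference, tri-CH1 minus wild type, was -0.083, so the sign turned with the probe set. The wild-type and tri-CH1 responses share no array, and the tri-CH1 response lies within 1 array lot.

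Pdk3, a further kinase isoform, encoded on the X chromosome, went from 567.1 to 900.0 in wild-type cells, and in tri-CH1 cells from 604.9 to 1010.7. Both hypoxia signals were above both normoxia signals, but the changes stayed under 2-fold, at 0.67 and 0.74 on the log2 scale. These changes were larger than 94.3% of the genes counted in wild type and 94.3% of those in tri-CH1. Only 1 probe set measured Pdk3, so its change has no internal check. Its difference between the responses, 0.074, was well within the spread between probe sets.

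Pdk2, the widely expressed isoform, gave 61.4 and 120.2 in wild-type normoxia and hypoxia, and 257.5 and 16.2 in tri-CH1. Of these 4 signals, 3 were under 200, and none reached 500, so no order was read from them. Its unfloored log2 change of -3.99 in tri-CH1 rests on 1 dim probe set, and with the floor the change was -0.36. Pdk4, the isoform induced by fasting and fatty acids in muscle, heart and liver, gave 39.6 and 51.6 in wild-type cells, and its tri-CH1 signals were 61.4 in normoxia and 50 in hypoxia. All 4 signals were under 200, so no change was read from them.

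In wild-type cells Ldha went from 10841.2 in normoxia to 23627.5 in hypoxia, and in tri-CH1 cells from 12608.1 to 24140.4. Both hypoxia signals lay well above both normoxia signals, and the hypoxia signals of the genotypes were nearly equal. The change was 2.18-fold in wild type (1.12 on the log2 scale) and 1.91-fold in tri-CH1 (0.94), so Ldha passed 2-fold in wild type alone. The difference between these changes was -0.19, less than the SD of 0.39 between probe sets for such differences, and was not tested. With median scaling the tri-CH1 change was 1.004, just past 2-fold. Ldha was number 106 of 4125 genes in wild type and number 155 of 4358 in tri-CH1. It was measured by 1 probe set, 1419737_a_at, whose suffix marks probes shared by several transcripts of a gene, and genes with near-identical copies elsewhere in the genome, as Ldha has, may add to such a signal.

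Ldhb was dimmer and its probe sets disagreed in the oxygen change. The brightest went from 344.3 to 462.8 in wild-type cells, and from 599.0 to 642.7 in tri-CH1 cells, log2 changes of 0.43 and 0.10. The next, whose suffix marks probes that may also match other genes, went from 336.5 to 314.0 and from 426.9 to 435.6, changes of -0.10 and 0.029. The third was at 112.8 and 160.1 on the wild-type arrays, under 200, and at 215.1 and 204.0 on the tri-CH1 arrays. The dimmest ranged from 96.7 to 137.3. No probe set of Ldhb passed 2-fold with oxygen. The larger contrast for Ldhb was between genotypes on the 2 brighter probe sets, which read the same arrays. The log2 differences, tri-CH1 minus wild type, were 0.80 in normoxia and 0.47 in hypoxia for the first, and 0.34 and 0.47 for the second. Those of the first lay above 94.9% of genes counted in normoxia and 84.7% in hypoxia. All these differences stayed under 2-fold, and across all settings tried the value of 0.80 lay between 0.52 and 0.80. The dimmest probe set, under 200 throughout, gave no order between genotypes.

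The subunits of the complex that the kinases act on stayed under 2-fold with oxygen. Pdha1, the subunit that carries the phosphorylated serines, went with hypoxia from 3812.1 to 4627.3 in wild-type cells, and in tri-CH1 cells from 3295.3 to 3928.8, log2 changes of 0.28 and 0.25. A second Pdha1 probe set went from 2153.2 to 2530.7 and from 2401.8 to 2345.1, changes of 0.23 and -0.034. The sign in tri-CH1 thus differed between probe sets, by less than the SD of 0.31 between probe sets of a gene. Pdhb went from 1723.3 to 1757.3 in wild-type cells, and in tri-CH1 cells from 1626.1 to 1346.9, changes of 0.028 and -0.27, and its other probe set was under 200 on all arrays.

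Dlat had negative values with hypoxia on each of its 3 probe sets in both genotypes, always under 2-fold. The brightest, whose suffix also marks possible matches to other genes, went from 763.6 to 583.0 in wild-type cells, and in tri-CH1 cells from 610.9 to 401.1, log2 changes of -0.39 and -0.61. The second went from 692.7 to 464.8 and from 354.7 to 298.4, changes of -0.58 and -0.25, and the third from 354.1 to 276.8 and from 391.1 to 302.2, changes of -0.36 and -0.37. The probe sets disagreed on which genotype changed more, since the differences between the responses were -0.22, 0.33 and -0.017. The value of the brightest probe set lay above that of 15.3% of genes counted in wild type and 5.81% in tri-CH1. On the brightest and the dimmest probe set both hypoxia signals were below both normoxia signals. On the second, the wild-type hypoxia signal of 464.8 was above the tri-CH1 normoxia signal of 354.7.

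**Figure D3:**
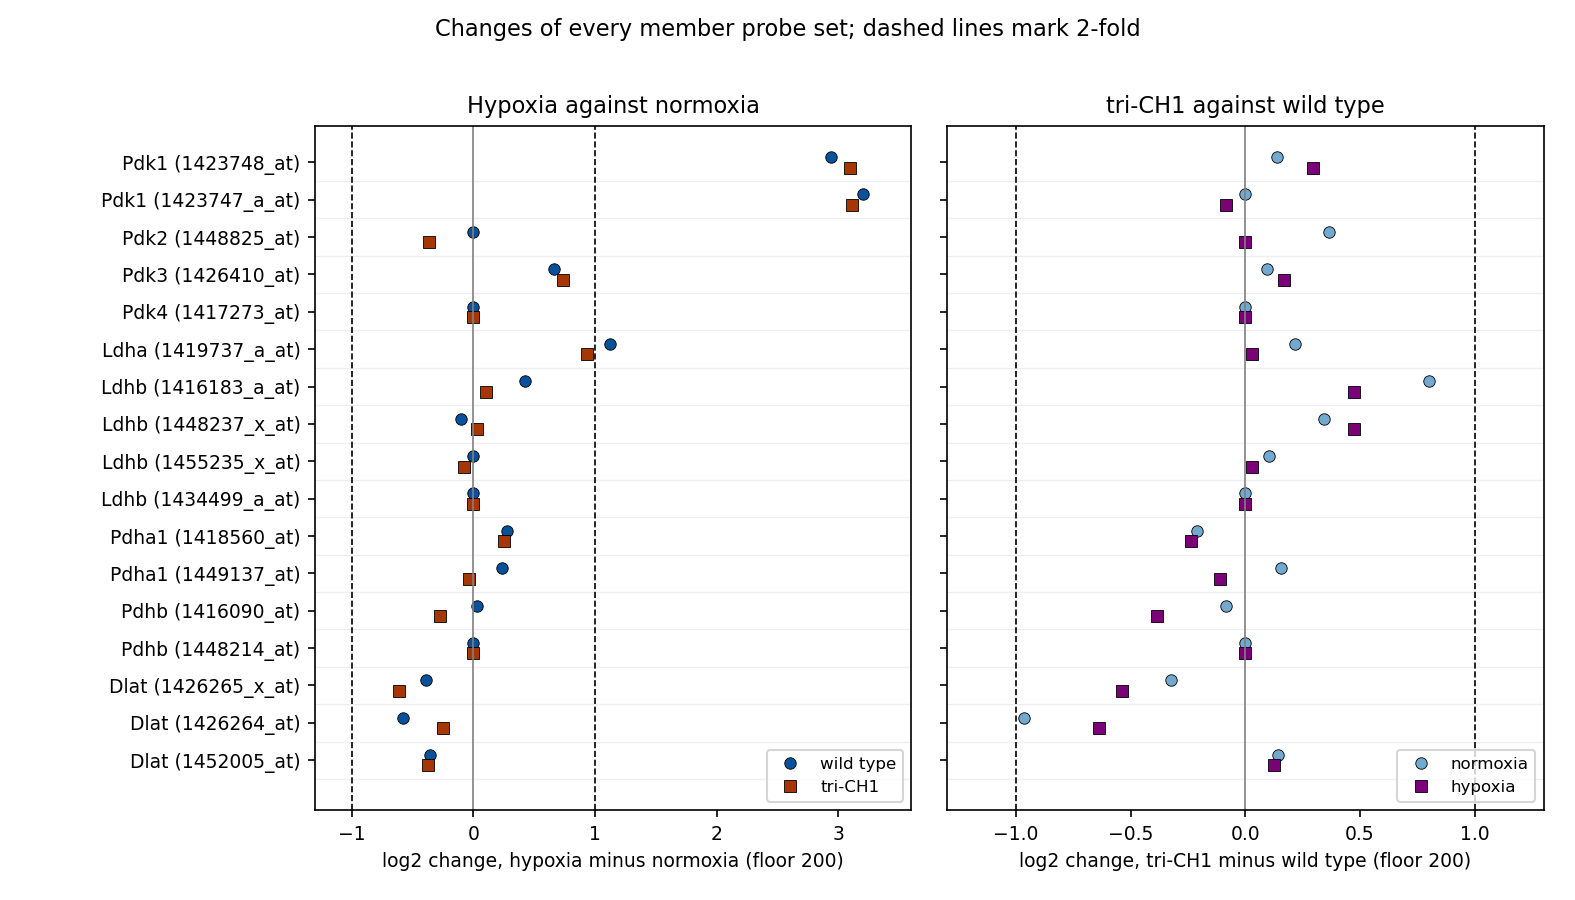
Log2 change of each of the 17 probe sets with hypoxia (left panel, wild type and tri-CH1) and between genotypes (right panel, normoxia and hypoxia), after signals under 200 were raised to 200; dashed lines mark 2-fold. Both Pdk1 probe sets lie near 3 in both genotypes, Ldha lies at 1.12 and 0.94, and the 3 Dlat probe sets lie left of 0 in the left panel. No point in the right panel is past a dashed line.

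Between genotypes no member bright enough to count differed by 2-fold at either oxygen level. Pdk2 and Pdk4 were not counted at either level, nor was Pdk1 in normoxia. In normoxia 0 of 6 members were higher in tri-CH1, against 3.16% of 4333 genes, and 0 lower, against 3.48%. In hypoxia 0 of 7 were higher, against 3.76% of 4233 genes, and 0 lower, against 3.31%. The members' log2 differences ran from -0.32 to 0.80 in normoxia and from -0.54 to 0.47 in hypoxia, with Ldhb at the upper end and Dlat at the lower end each time. Dlat was -0.32 and -0.54 with the brightest probe set and -0.97 and -0.64 with the second, but 0.14 and 0.13 with the third. The normoxia value of -0.97 was the widest genotype difference of any member probe set after the floor. Pdha1 was -0.21 and -0.24 with its brighter probe set, and 0.16 and -0.11 with the other. Pdk3 was 0.093 in normoxia, turning to -0.13 with median scaling, and 0.17 in hypoxia. Ldha was 0.22 in normoxia, turning to -0.0022 with median scaling, and 0.031 in hypoxia, where median scaling gave -0.047 and cyclic loess 0.14. Median scaling moved the median of all genes from 0.032 to -0.21 in normoxia and gave 81 higher and 262 lower genes there in place of 137 and 151.

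The size of the hypoxia change differed between genotypes by less than 1 log2 unit for every member counted, 0 of 7 in either direction, against 1.77% of 4645 genes with a larger and 1.46% with a smaller value in tri-CH1. The members' differences ran from -0.33 for Ldhb to 0.16 for Pdk1 (0.051 without the floor), with a median of -0.19, beside 0.028 over all genes. These values share arrays with both hypoxia comparisons. With median scaling the median of all genes was 0.18 and the split of genes past 1 log2 unit went from 82 and 68 to 146 and 45.

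Other genes of pyruvate and lactate handling were taken from a list of 19, of which 13 were named on the array. Pdhx, Pdp1, Pdp2, Pdpr, Mpc2 and Ldhd were not analysed here. One of the 6 list genes counted in wild type rose, and 1 of 7 in tri-CH1, the monocarboxylate transporter Slc16a3 in each case, beside 3.05% and 3.19% of all genes counted. In either genotype 0 fell, beside 1.19% and 0.987%. Slc16a3, which exports lactate, went from 659.0 to 4039.7 in wild-type cells, and in tri-CH1 cells from 428.0 to 3596.3, a rise of 6.13-fold and 8.40-fold. Its relative Slc16a1 went from 449.4 to 785.6 and from 725.9 to 1266.6, log2 changes of 0.81 and 0.80. Bsg, the chaperone of these transporters, went from 5516.0 to 8569.2 and from 6085.5 to 11287.3, changes of 0.64 and 0.89. Slc16a3, Slc16a1 and Bsg each had hypoxia signals above the normoxia signals of the same genotype, though Slc16a1 and Bsg stayed under 2-fold. Over all genes counted, 1776 of 4125 changes were above 0 in wild type and 1998 of 4358 in tri-CH1. The transporter Slc16a7 was under 200 on all arrays.

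No other list gene passed 2-fold with oxygen. Pkm, the pyruvate kinase gene, changed by 0.84 log2 units in wild-type cells and 0.59 in tri-CH1 cells. Dld, another enzyme of the dehydrogenase complex, went from 548.5 to 613.9 and from 340.1 to 502.6, changes of 0.16 and 0.56. Mpc1, a subunit of the mitochondrial pyruvate carrier, went from 932.2 to 763.6 in wild-type cells, and in tri-CH1 cells from 765.1 to 911.0, changes of -0.29 and 0.25. Bckdk, the kinase of the related branched-chain ketoacid dehydrogenase, was at 388.2 and 407.9 in wild-type cells, and at 608.6 and 561.9 in tri-CH1 cells. Pyruvate carboxylase (Pcx), the alanine aminotransferases Gpt and Gpt2, the transporter Slc16a7, and the testis genes Ldhc and Pdha2 did not reach 500 on any array. Over the list genes counted, the median was 0.72 for wild-type cells and 0.59 for tri-CH1 cells, beside -0.057 and -0.039 over all genes. The list medians cover different sets, 6 and 7 genes, because Bckdk, at -0.12 in tri-CH1, was counted there alone.

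**Figure D4:**
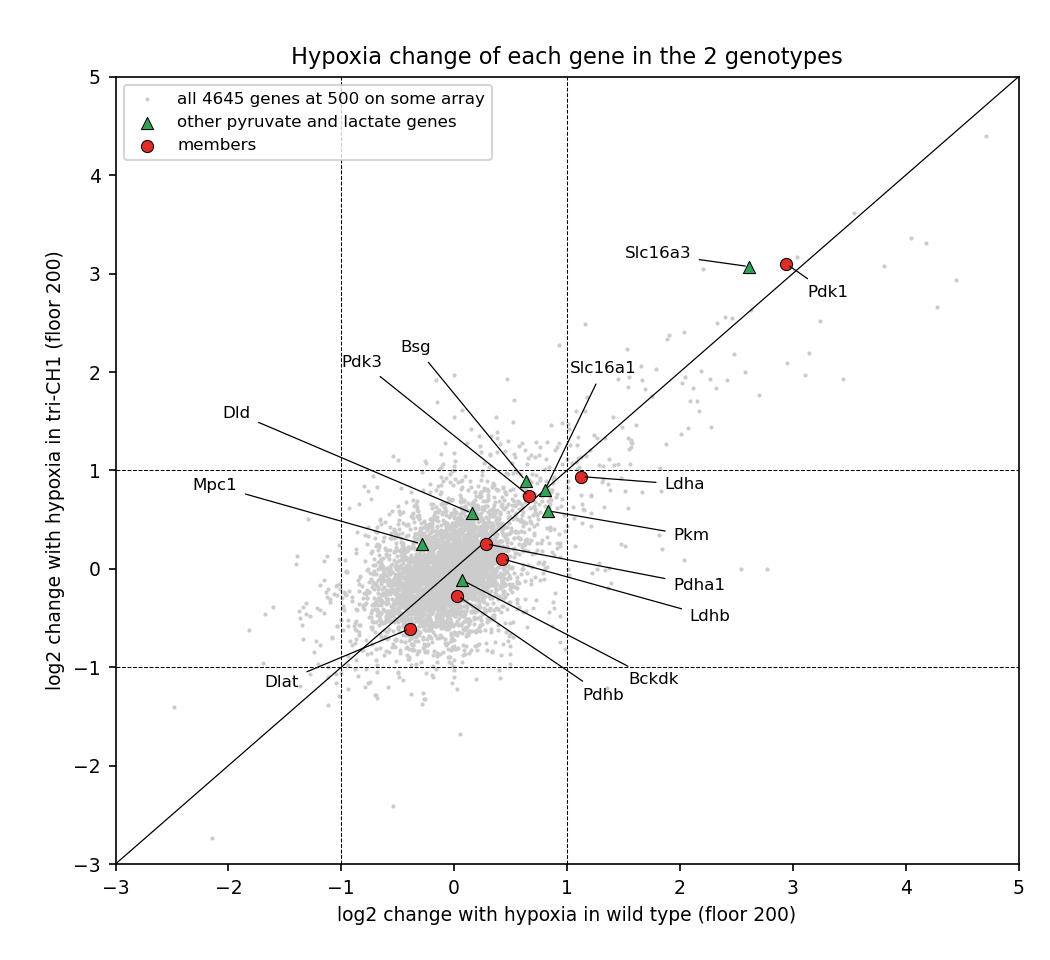
Log2 change with hypoxia in wild type (horizontal) and in tri-CH1 (vertical), after signals under 200 were raised to 200, for 4645 genes (grey points), the 7 members (red circles) and the 7 other pyruvate and lactate genes (green triangles) that reached 500 on some array. The solid line marks equal change and dashed lines 2-fold. Pdk1 and Slc16a3 lie at the upper right, Ldha near the crossing of the dashed lines, and Dlat below and left of 0.

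The genes most like Pdk1 and Ldha were found by Euclidean distance between log2 signals over the 4 arrays, each gene centred on its own mean, among 4645 genes. With 4 arrays this describes the profiles only. Nearest to Pdk1 were Egln1, a HIF prolyl hydroxylase, at 0.15, the liver-type phosphofructokinase Pfkl at 0.55 and the mitochondrial protein gene Fam162a at 0.55. Egln1 went from 323.6 to 2654.1 in wild-type cells, and in tri-CH1 cells from 328.8 to 2955.0. Nearest to Ldha were Dnajc5, a cochaperone, at 0.041, the ubiquitin ligase gene Rnf126 at 0.13 and the phospholipid flippase gene Atp11b at 0.14. Dnajc5 went from 953.6 to 2078.4 in wild-type cells, and in tri-CH1 cells from 1147.1 to 2167.6, log2 changes of 1.12 and 0.92. Those of Rnf126 were 1.05 and 1.07, past 2-fold in each genotype, and those of Atp11b 1.21 and 0.75. These genes were picked for their likeness on the same arrays, so their similar changes follow from the choice.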

How the data were processed

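Gene expression was measured in 4 samples, 1 Affymetrix array each. Per the labels, the authors summarised probe sets with Affymetrix's statistical algorithm and brought every array to a target of 500 with a scale factor. The deposited values are linear intensities. Software names are not given in the sources used here. Of 22690 probe sets, 20380 had 1 gene symbol in the platform annotation, 691 several, 1555 none, and 64 were controls. All 9 members matched RefSeq by gene number. Each gene took its probe set of highest mean signal. Signals under 200 were raised to 200, and 2-fold calls needed 500 on the brighter array. Members, lists and rules were chosen with earlier results of these data known. Every member and list gene was named, with the 3 genes most like Pdk1 and Ldha. Alternatives were floors of 100, 400 or none, minimum signals of 250 and 1000, quantile, cyclic loess and median scaling, and other choices of probe set. Python 3.11.15, numpy 2.4.6, pandas 2.3.3, scipy 1.17.1, matplotlib 3.10.9, R 4.3.3 and limma 3.58.1 (normalization only) were used.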

Additional observations from a re-analysis of the deposited data

Results flagged for a closer look

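Pdhb and Mpc1 had hypoxia changes of opposite sign in the genotypes, among members and list genes bright enough to count in both. Over all genes counted, 1776 of 4125 changes were above 0 in wild type and 1998 of 4358 in tri-CH1. The share of all genes with opposite signs was not counted, so opposite signs are not read as particular to Pdhb and Mpc1. For Pdhb, the log2 change was 0.028 in wild-type cells and -0.27 in tri-CH1 cells, a difference of -0.30, which was not tested. The SD between probe sets of a gene for such differences is 0.39. With the mean over both Pdhb probe sets, 1 of which was under 200 on every array, the difference was 0.65. Over the 11 settings, the Pdhb change lay between -0.047 and 0.18 in wild type and between -0.29 and 0.83 in tri-CH1. It turned sign in 1 setting in each genotype. For Mpc1, measured by 1 probe set, the difference was 0.54, from changes of -0.29 and 0.25, and it was not tested either. In the settings tried it lay between 0.50 and 0.68.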

How the results depend on the processing

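Of 220 counts of members and list genes past 2-fold, recomputed under 11 other settings, 218 kept their value within 1.5 times. Most of these counts were 0 at the main setting and stayed so. The counts that moved were among the few above 0. The count of members that rose in tri-CH1 became 2 with median scaling, where Ldha reached 1.004. The count in wild type became 1 with only probe sets ending in plain _at, because Ldha has none of that kind. Of 1140 values of single genes, 0 called values changed sign, 0 lost the call where the gene had a value, and 1, that of Ldha, gained it. Only changes called at the main setting could lose the call. These were the hypoxia changes of Pdk1 and Slc16a3 in both genotypes and of Ldha in wild type. A further 54 values moved by at least the SD between probe sets with no call before or after. Pdk1 stayed past 2-fold in all 11 settings, between 1.94 and 3.07 on the log2 scale in wild type and between 2.24 and 3.22 in tri-CH1, with the lowest values at a floor of 400. Ldha lay between 1.05 and 1.13 in wild type and between 0.90 and 1.004 in tri-CH1. No paired analysis was possible because each group has 1 array and the labels give no replicate numbers, and no array can be left out of its group. Signals near the floor, as for Pdk2, Pdk4 and the dimmer Ldhb probe sets, carry no order.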
